A study of Mus musculus with 6 samples.

Results

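The genes described here encode collagens, laminins, integrins, fibronectin (Fn1), nidogens (Nid1 and Nid2), perlecan (Hspg2) and agrin (Agrn). They were chosen by symbol and not by a measured value, although earlier results of these data were known by then. They comprise 85 of the 43383 rows of the expression table. Of these 85 rows, 43 are collagen chains, 11 laminin chains, 18 integrin alpha chains and 8 integrin beta chains. RNA-seq was performed on GFP-positive cells that were sorted from somatosensory cortex dissected into upper layers (II to IV) and deep layers (V, VI). The animals were male Aldh1l1-eGFP mice aged 4 weeks, in which the astrocytic Aldh1l1 promoter drives the fluorescent protein, and upper-layer astrocytes (ULAs) and deep-layer astrocytes (DLAs) share this genotype, sex and age. Meninges, layer I, the corpus callosum and the border zone of layers IV and V were removed at dissection. Each layer has 3 libraries, 1 from each of 3 brains, and the libraries were paired by brain. The comparison asks whether astrocytes of the upper and deep layers differ in the matrix chains they express and in the receptors that bind them.

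Collagens and laminins are trimers that are assembled inside the cell from separately encoded chains and then secreted. Laminins and type IV collagen form the sheets of basement membranes, nidogens, perlecan and agrin tie these sheets together, and fibrillar collagens form fibers to which other collagens attach. Integrins are receptors made of 1 alpha and 1 beta chain, and the pair decides which matrix protein is bound. In the brain, the end-feet of astrocytes face the basement membrane of blood vessels and of the pial surface, and astrocytes contribute laminin containing the alpha 2 chain to it.

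Levels are given as RPKM, reads scaled to mRNA length and to the depth of the library, which allows genes of different length to be compared. Steps in the values of short mRNAs placed the depth, in M reads (M for mega), at 24.5 to 26.7 in the ULA libraries and 19.7 to 29.6 in the DLA libraries. At these depths the reads behind each member can be estimated, and counting error is smallest for the abundant chains. Astrocyte markers were abundant, with all 10 listed genes over 1 RPKM on average and a summed level of 10800 to 11400 in ULAs and 9800 to 10700 in DLAs. All 8 endothelial markers averaged below 1 RPKM, with summed levels of 1.29 to 2.17 in ULAs and 0.95 to 4.25 in DLAs. Of 8 fibroblast markers, 7 stayed below 1 RPKM in every library (Dcn and Lum at most at 0.07 and 0.09), and Islr, at 60.09 to 89.94 RPKM, was the exception. For mural cells of vessels, Abcc9 was listed at 0 throughout and Kcnj8 reached 0.02 RPKM, whereas Pdgfrb stood at 10.31 to 19.84 RPKM. Oligodendrocyte markers summed to 87.0 to 177.0 RPKM in ULAs and 176.0 to 274.0 in DLAs, and 5 of the 7 that were tested were higher in DLAs. Microglial markers summed to 13.9 to 14.9 and 9.09 to 12.2 RPKM and neuronal ones to 6.84 to 7.29 and 4.90 to 7.13, whereas those of oligodendrocyte precursors stayed under 1. In such bulk samples, fewer cells of a type and less RNA per cell cannot be told apart.

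Expression was concentrated in a small set of chains. Of the 85 members, 23 (27.1%) averaged at least 1 RPKM across the 6 libraries and were tested, 23 lay between 0.1 and 1, 35 lay above 0 but under 0.1, and 4 (Col3a1, Col6a3, Col6a5 and Itgax) were listed at 0 in all libraries. Among all rows of the table, 32.3% had a mean of at least 1. The tested members comprise 9 collagens, 4 laminins, 9 integrins and Agrn. The 35 members under 0.1 never exceeded 0.18 RPKM in a library. They include Fn1 (0.01 to 0.04 RPKM, 2 to 8 reads), Nid1 (0 to 0.04), Hspg2 (0.05 to 0.12), Lama1 (0 to 0.01) and Lamb1 (0.01 to 0.06), the last of which is the beta chain of most vascular laminins. The leukocyte integrin chains Itgam and Itgb2, which microglia use, were also close to 0, at most 0.05 and 0.16 RPKM.

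**Figure D1:**
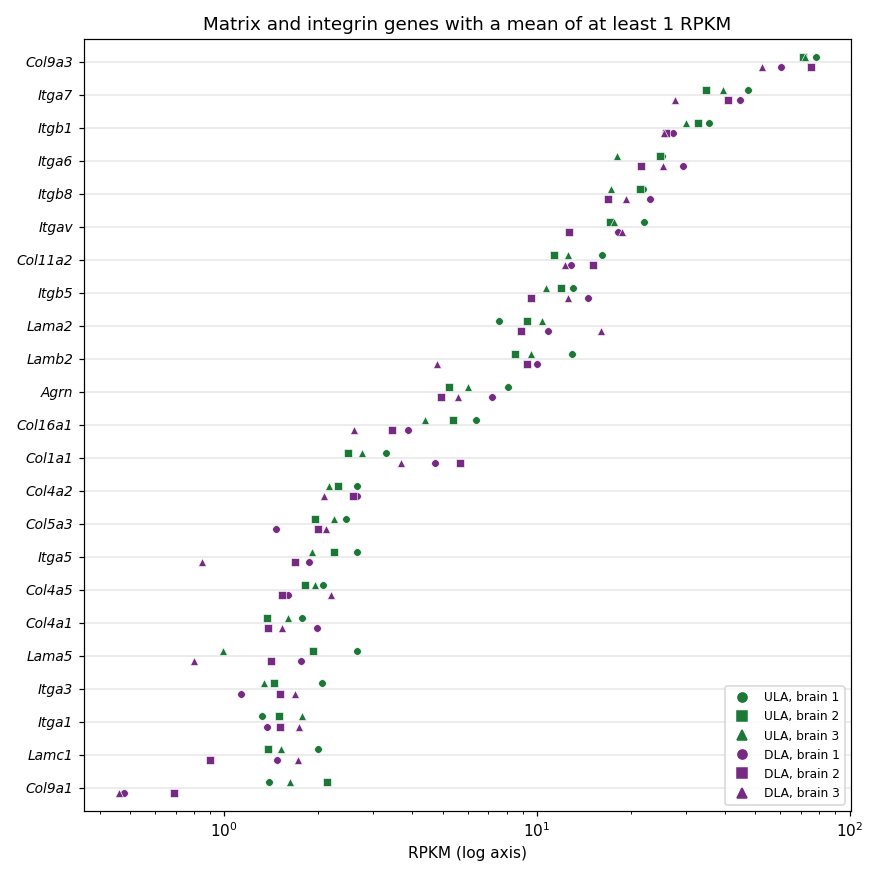
RPKM (log axis) of the 23 members with a mean of at least 1 RPKM, ordered by mean; each symbol is 1 library, with ULAs in green above DLAs in purple and a different shape for each brain. Col9a3 lies highest at 52.39 to 78.16 RPKM, and green and purple do not overlap for Col9a1, Col16a1, Itgb1, Itga5 and Col1a1.

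The most abundant member was Col9a3, the alpha 3 chain of type IX collagen, a collagen known from the surface of cartilage fibrils. Its RPKM was 78.16, 71.01 and 72.11 in the ULAs of brains 1, 2 and 3 and 60.37, 75.32 and 52.39 in the DLAs. This single chain made up 62.3% to 67.6% of the summed RPKM of all 43 collagens in each library. Of its partner chains, Col9a1 had 1.39, 2.13 and 1.62 RPKM in ULAs and 0.48, 0.69 and 0.46 in DLAs, and Col9a2 had 0.20 to 0.22 in ULAs and 0.18 to 0.38 in DLAs. Although the chains occur together in the classical trimer, the level of Col9a3 was thus 33.3 to 126.0 times that of Col9a1 and 159.0 to 391.0 times that of Col9a2. Col9a3 shares 229 bases with Tcfl5 on the opposite strand. With reads spread evenly over Tcfl5, these would hold 0.24% of the Col9a3 reads on average. All of Tcfl5 had 76 to 134 reads per library, against 4223 to 5480 for Col9a3.

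An uneven balance between partner chains was also seen elsewhere. Col11a2, a chain of the fibrillar type XI collagen, had 16.18, 11.32 and 12.58 RPKM in ULAs and 12.84, 15.11 and 12.28 in DLAs, which was 20.6 to 68.7 times the level of Col11a1. The type I chain Col1a1 exceeded Col1a2 by 3.14 to 9.28 times, and Col3a1, which often accompanies type I collagen in connective tissue, was listed at 0. By contrast, the type IV chains Col4a2 (2.09 to 2.65 RPKM) and Col4a1 (1.37 to 1.98 RPKM), which form 1 trimer, stayed close to each other, and the ULA ratio of 1.51 ± 0.169 was like the DLA ratio of 1.52 ± 0.299 (SD, n = 3).

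**Figure D2:**
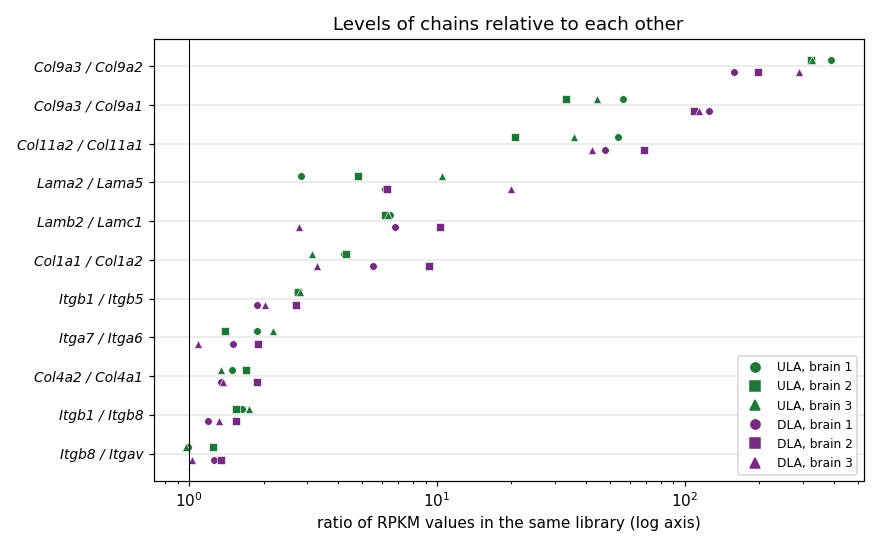
Ratio of the RPKM of a pair of chains in the same library (log axis), with ULAs in green, DLAs in purple and a shape for each brain; the vertical line marks a ratio of 1. Col9a3 / Col9a2 and Col9a3 / Col9a1 lie above 30 in every library, whereas Col4a2 / Col4a1 and Itgb8 / Itgav lie between 0.973 and 1.87.

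Among the laminins, Lama2 (the alpha 2 chain) and Lamb2 (the beta 2 chain) were the most abundant. Lama2 had 7.55, 9.29 and 10.41 RPKM in ULAs and 10.84, 8.89 and 16.03 in DLAs. Lamb2 had 12.98, 8.53 and 9.60 RPKM in ULAs and 9.99, 9.27 and 4.78 in DLAs. The groups overlapped for each of these chains, and the DLAs of brain 3 held the highest Lama2 value and the lowest Lamb2 value. Lamc1, the gamma chain that is found in most laminins, ranged from 0.90 to 2.0 RPKM, and Lama5 from 0.80 to 2.66. Lamb2 was thus 2.78 to 10.3 times as high as Lamc1 and 95.6 to 853.0 times as high as Lamb1, although the Lamb1 values rest on only 1 to 9 reads each.

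Among the receptors, Itga7 and Itga6, alpha chains that bind laminin, had 27.61 to 47.24 and 18.07 to 29.38 RPKM, and Itgb1, the beta chain with which they pair, had 25.53 to 35.56. Itgb8 (16.88 to 23.01 RPKM) and Itgb5 (9.57 to 14.58) pair with Itgav (12.63 to 22.06), and Itgb8 matched Itgav with ratios of 0.973 to 1.34. The αvβ8 integrin is known as an activator of latent TGF-β. Itga5, the fibronectin receptor chain, and Itga1, a collagen receptor chain, were much lower, at 0.85 to 2.66 and 1.32 to 1.77 RPKM. The 18 alpha chains summed to 102.0, 83.7 and 81.9 RPKM in ULAs and 97.6, 81.0 and 77.0 in DLAs, with means of 89.3 ± 11.3 and 85.2 ± 10.9 (SD, n = 3). The 8 beta chains summed to 70.5, 66.6 and 58.4 RPKM in ULAs and 65.2, 53.0 and 58.1 in DLAs, with means of 65.1 ± 6.19 and 58.8 ± 6.11. Within each brain these sums were higher in ULAs, while the ranges of the layers overlapped, and the sums were not tested.

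Between the layers, 1 of the 23 tested members was higher in ULAs (Col9a1) and 0 were higher in DLAs at an adjusted p-value under 0.05 (limma, with the brain in the model). Among all 13999 rows tested, 0.714% were called higher in ULAs and 0.914% higher in DLAs, that is, 100 and 128 genes, or 138 and 103 under quantile normalization. The single call is 4.35% of the members tested, and Col9a1 passed the filter of 1 RPKM through its ULA values alone (mean 1.71, against 0.543 in DLAs), so that the count gives no support for a difference of the members as a group. At an unadjusted p-value under 0.05, 4 members were higher in ULAs (Col9a1, Col16a1, Itgb1 and Itga5), where the background was 5.64%, and 2 were higher in DLAs (Col1a1 and Lama2), where it was 10.8%. The median log2 difference (ULA minus DLA, on the log2(RPKM + 1) scale) of the 23 members was 0.11, with 15 above 0 and 8 below, against a median of −0.03 over all rows tested. The members have long mRNAs (median 5605 bases, against 2444), and the ULA/DLA ratio rose with mRNA length across all genes in each brain (Spearman's rho of 0.21, 0.37 and 0.10, where genes are not independent). After the length trend was removed, the median of the members was 0.01, with 12 of the 23 above 0, against a median of −0.034 over all rows tested. Whether mRNA length accounts for the shift of the members was not tested.

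**Figure D3:**
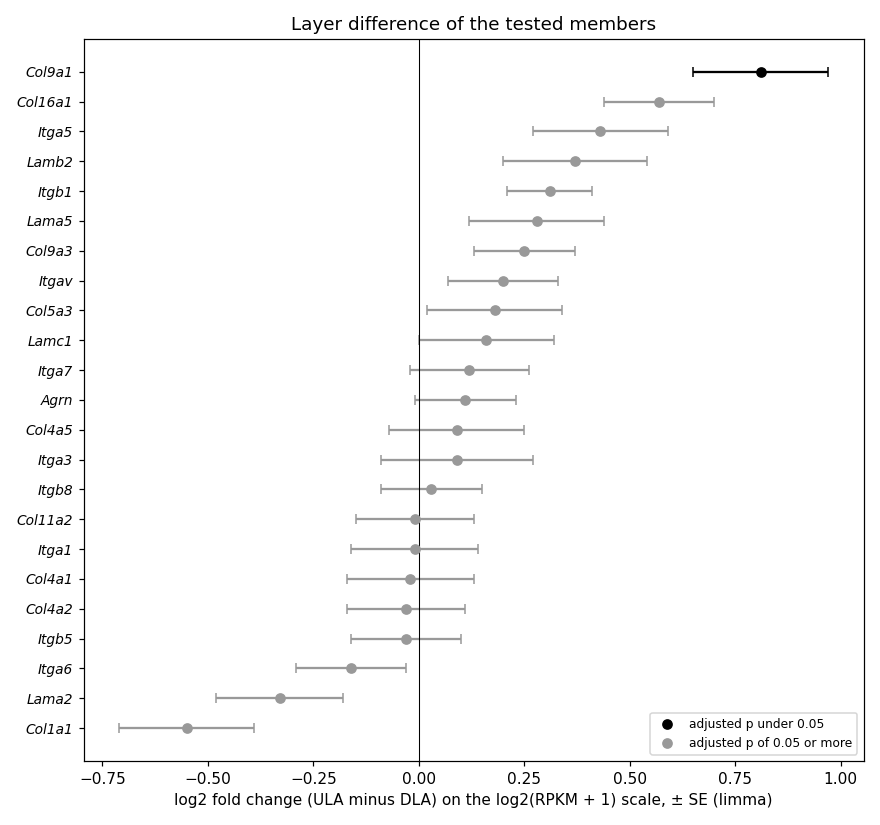
Log2 difference (ULA minus DLA) of the 23 tested members on the log2(RPKM + 1) scale, with bars for the SE from limma; black marks an adjusted p-value under 0.05 and gray all others. Col9a1 at 0.81 is the only black point, and 14 of the 23 members lie within 0.2 of 0.

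Col9a1 (chr1:24184449-24259577 on mm9, plus strand, 38 exons) encodes the alpha 1 chain of type IX collagen. It was measured at 1.39, 2.13 and 1.62 RPKM in ULAs (brains 1, 2 and 3; 132 to 212 reads) and at 0.48, 0.69 and 0.46 in the DLAs (50 to 53 reads). All ULA values were above all DLA values, with means of 1.71 ± 0.379 and 0.543 ± 0.127 RPKM (SD, n = 3), a ratio of 3.15. Its log2 difference was 0.81 (SE 0.16, adjusted p = 0.0383, limma with the brain in the model). The call rests on the choice of model, because the adjusted p was 0.153 without the brain in the model, 0.0529 with a pseudocount of 0.1, 0.0785 after a correction for mRNA length and 0.339 with no filter on low RPKM. Without brain 2 the mean of the gene fell under 1 RPKM and it was not tested. Among markers of mural cells, Rgs5 was higher in ULAs as well (1.98, 2.06 and 2.70 RPKM in ULAs and 1.01, 0.75 and 0.93 in DLAs, log2 difference 0.77, adjusted p = 0.0455, limma). Like Col9a1, Rgs5 passed the filter through its ULA values (mean 2.25, against 0.897 in DLAs). Its adjusted p was 0.0504 with a filter at 0.5 RPKM and 0.4 with no filter (limma). The more abundant Pdgfrb and Notch3 had log2 differences of 0.08 and 0.17 (adjusted p = 0.79 and 0.602, limma). Of the markers averaging under 1 RPKM, Tagln, Acta2 and Myh11 were higher in ULAs in each brain. Their means were 1.01, 0.2 and 0.0467 RPKM in ULAs and 0.823, 0.0367 and 0.0133 in DLAs. Vtn was higher in every DLA library (0.10 to 0.17 RPKM, 5 to 8 reads, against 0 to 0.06). Of the 9 mural cell markers, 3 averaged at least 1 RPKM and Abcc9 and Kcnj8 were at or near 0, and the list summed to 17.9 to 26.0 RPKM in ULAs and 13.4 to 21.5 in DLAs. The part of these cells in the Col9a1 difference was not tested.

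Of the 9 fibril-associated collagens, which bind to the surface of fibrils, 3 were tested (Col9a1, Col16a1 and Col9a3), each with a log2 difference above 0. Among those below the filter, Col9a2 averaged 0.213 RPKM in ULAs and 0.313 in DLAs. Col16a1 (chr4:129725084-129776521 on mm9, plus strand, 70 exons) had 6.37, 5.41 and 4.38 RPKM in ULAs and 3.88, 3.43 and 2.60 in DLAs (352 to 812 reads), so that the lowest ULA library was above the highest DLA library. Its log2 difference of 0.57 (SE 0.13) had an adjusted p of 0.07 (limma), within a range of 0.0418 (without brain 3) to 0.396 over the alternatives. For Col9a3, whose values are given above, the DLAs of brain 2 lay within the range of the ULAs, and the log2 difference of 0.25 (SE 0.12) had an adjusted p of 0.346 (limma). In brain 2 Col9a3 was higher in DLAs, whereas in brains 1 and 3 it was higher in ULAs.

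The start regions of Col9a1 and Col16a1, the collagen chains with the largest log2 differences, and of the paired genes Col4a1 and Col4a2 are shown from RefSeq, each from 250 bases before to 50 bases after the annotated start. They are on build GRCm38.p6, whereas the expression table is on mm9, and they are written in the direction of the gene. Capitals mark the GC box GGGCGG or its reverse complement CCGCCC, which was searched on both strands. Col9a1 has 2 annotated starts, at chr1:24177360-24177659 and chr1:24194953-24195252 (plus strand), with 47.3% and 55.7% G and C and no GC box in either window. The window of Col16a1 (chr4:130047590-130047889, plus strand) has 74.3% G and C and 2 GC boxes. Col4a1 (chr8:11312777-11313076, minus strand) and Col4a2 (chr8:11312555-11312854, plus strand) are transcribed away from each other, and their windows share 78 bases. A match describes the letters of the window and not a bound site. Windows were found for 61 of the 85 members, 39 of their 68 windows (57.4%) hold the GC box, and 35.7% of all 32851 windows do.
Col9a1, first start: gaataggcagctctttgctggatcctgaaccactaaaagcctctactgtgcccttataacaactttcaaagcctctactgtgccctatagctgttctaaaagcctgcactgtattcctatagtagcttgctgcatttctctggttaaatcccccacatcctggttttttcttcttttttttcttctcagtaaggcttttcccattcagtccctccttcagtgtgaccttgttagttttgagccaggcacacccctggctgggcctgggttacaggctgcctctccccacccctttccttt
Col9a1, second start: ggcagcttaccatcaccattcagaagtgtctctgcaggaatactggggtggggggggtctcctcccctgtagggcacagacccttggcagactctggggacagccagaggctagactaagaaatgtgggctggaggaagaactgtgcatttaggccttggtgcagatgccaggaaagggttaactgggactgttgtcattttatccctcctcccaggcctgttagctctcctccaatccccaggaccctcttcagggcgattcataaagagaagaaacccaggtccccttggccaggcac
Col16a1: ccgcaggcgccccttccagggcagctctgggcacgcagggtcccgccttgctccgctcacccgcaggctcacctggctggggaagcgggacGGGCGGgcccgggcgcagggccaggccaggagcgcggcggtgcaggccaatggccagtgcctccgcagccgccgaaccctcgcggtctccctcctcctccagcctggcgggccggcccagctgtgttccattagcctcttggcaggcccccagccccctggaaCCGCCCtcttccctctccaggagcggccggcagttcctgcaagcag
Col4a1: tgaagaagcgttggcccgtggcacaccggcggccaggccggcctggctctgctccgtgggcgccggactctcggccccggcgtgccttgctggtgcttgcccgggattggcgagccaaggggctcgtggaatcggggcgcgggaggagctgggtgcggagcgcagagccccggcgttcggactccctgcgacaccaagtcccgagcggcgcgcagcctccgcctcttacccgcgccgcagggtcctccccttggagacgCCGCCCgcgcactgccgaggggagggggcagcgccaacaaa
Col4a2: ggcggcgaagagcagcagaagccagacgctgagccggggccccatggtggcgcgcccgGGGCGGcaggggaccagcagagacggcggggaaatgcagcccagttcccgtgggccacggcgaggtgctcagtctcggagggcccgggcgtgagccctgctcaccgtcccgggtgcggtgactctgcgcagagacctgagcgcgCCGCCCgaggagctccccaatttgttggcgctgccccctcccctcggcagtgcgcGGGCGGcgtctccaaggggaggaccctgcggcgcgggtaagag

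The type IV pair, whose windows overlap, differed little between the layers. Col4a1 had 1.78, 1.37 and 1.60 RPKM in ULAs and 1.98, 1.38 and 1.53 in DLAs, and Col4a2 had 2.65, 2.31 and 2.16 in ULAs and 2.65, 2.58 and 2.09 in DLAs. Their log2 differences were −0.02 (SE 0.15) and −0.03 (SE 0.14), with adjusted p-values of 0.959 and 0.948 (limma). The third chain of this group that was tested also lay within 0.1 of 0.

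Col1a1 (chr11:94797584-94813170 on mm9, plus strand, 51 exons), the main chain of type I collagen, went the other way. It had 3.29, 2.49 and 2.76 RPKM in ULAs and 4.73, 5.66 and 3.67 in DLAs, without overlap between the groups. Its log2 difference was −0.55 (SE 0.16, adjusted p = 0.13, limma), and it passed only without brain 3 (adjusted p = 0.0184, against up to 0.462 in the other alternatives). A transcript on the opposite strand, ENSMUSG00000091342, shares 109 bases with Col1a1 and averaged 7.37 RPKM in ULAs and 12.6 in DLAs. With reads spread evenly over this transcript, the overlap would hold 6.16% of the Col1a1 reads on average. The transcript had 24 to 55 reads per library, against 299 to 591 for Col1a1, so a larger share is possible. Oligodendrocyte markers were higher in DLAs as well (Mog at 1.43, 1.48 and 8.37 RPKM in ULAs and 6.76, 9.14 and 12.95 in DLAs), and their part in the Col1a1 difference was not tested. Col11a2, the most abundant fibrillar chain, had a log2 difference of −0.01 (SE 0.14).

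None of the 4 laminin chains above the filter passed the test, and Lama2 had the lowest unadjusted p-value among them (0.0464, limma). Lama3, which lay below the filter, is described further on. Lama2 had a log2 difference of −0.33 (SE 0.15, adjusted p = 0.297, limma), and it was higher in DLAs in brains 1 and 3 and lower in brain 2. Lamb2 was at 0.37 (SE 0.17, adjusted p = 0.323) and was higher in ULAs in brains 1 and 3. Lama5, a chain of mature basement membranes, had 2.66, 1.93 and 0.99 RPKM in ULAs and 1.76, 1.41 and 0.80 in DLAs. Each of the 3 brains had the higher value in ULAs, but the spread between brains was larger than the layer difference, and the log2 difference of 0.28 (SE 0.16) had an adjusted p of 0.408. Agrn, a proteoglycan that binds laminin and dystroglycan, behaved similarly, with 8.09, 5.25 and 6.01 RPKM in ULAs and 7.20, 4.92 and 5.58 in DLAs (log2 difference 0.11, SE 0.12, adjusted p = 0.718), and turned to −0.02 after the length correction.

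Of the 9 integrin chains tested, none passed (2, Itgb1 and Itga5, had an unadjusted p-value under 0.05), and 7 of the 9 had log2 differences within 0.2 of 0. Itgb1 had 35.56, 32.81 and 30.07 RPKM in ULAs and 27.30, 25.95 and 25.53 in DLAs, from 2144 to 3654 reads. These groups did not overlap, but the log2 difference of 0.31 (SE 0.10) had an adjusted p of 0.185 (limma). Itga5 had 2.66, 2.25 and 1.91 RPKM in ULAs and 1.87, 1.69 and 0.85 in DLAs, again without overlap (log2 difference 0.43, SE 0.16, adjusted p = 0.223). The laminin receptor chains Itga7 and Itga6 overlapped between layers, with 47.24, 34.65 and 39.49 against 44.47, 40.92 and 27.61 RPKM for Itga7 and 25.17, 24.82 and 18.07 against 29.38, 21.59 and 25.35 for Itga6. Their log2 differences were 0.12 and −0.16 (adjusted p = 0.716 and 0.586). Itgav, Itgb8, Itgb5 and Itga1 had log2 differences of 0.20, 0.03, −0.03 and −0.01 (adjusted p from 0.462 to 0.987), and a direction is not given for the last 3, since each changed sign in at least 1 alternative.

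Over the 23 tested members, the 3 ULA libraries lay above the 3 DLA libraries for 4 genes (Col9a1, Col16a1, Itgb1 and Itga5; 17.4%, against 6.59% of all tested rows) and below them for 1 (Col1a1; 4.35%, against 9.27%). These counts describe the same values as the test above. In each of the 3 brains, 6 members were higher in ULAs (the 4 genes named and Lama5 and Agrn; 26.1%, against 15.2% of all tested rows) and 1 was higher in DLAs (Col1a1; 4.35%, against 23.2%). The 7 members with 1 direction are thus a smaller share than among all tested rows, and nothing is read from this count about the members.

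Below the filter, 5 of the 23 members with a mean of 0.1 to 1 RPKM had all ULA libraries above all DLA libraries (21.7%, against 6.41% of all 5925 rows of this level), and 0 had the reverse (against 4.37%). These 5, Lama3, Col5a2, Col5a1, Col23a1 and Col11a1, were singled out after their values were seen. Lama3, the alpha 3 chain of epithelial laminins, had 2.01, 1.06 and 1.22 RPKM in ULAs (281 to 509 reads) and 0.54, 0.30 and 0.34 in DLAs (61 to 149 reads). Its means were 1.43 ± 0.509 and 0.393 ± 0.129 RPKM, a ratio of 3.64. At a filter of 0.5 RPKM, added after the data were seen, Lama3 alone of these 5 was tested. Its log2 difference there was 0.79 (SE 0.16), with an adjusted p of 0.0504 (limma), above the threshold. Its DLA mean was under that filter.

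Col5a2 and Col5a1, the chains of type V collagen, which starts and limits the growth of type I fibrils, did not overlap between the layers and were higher in ULAs in the 3 brains, at few reads. Col5a2 had 0.40, 0.45 and 0.55 RPKM in ULAs (65 to 97 reads) and 0.08, 0.05 and 0.13 in DLAs (7 to 25 reads), and Col5a1 had 0.34, 0.29 and 0.28 against 0.13, 0.17 and 0.17 (28 to 70 reads over all libraries). The third type V chain, Col5a3, was more abundant (1.47 to 2.46 RPKM) and overlapped between the layers. The membrane collagen Col23a1 had 0.94, 0.63 and 0.52 RPKM in ULAs and 0.12, 0.31 and 0.42 in DLAs, and Col11a1 had 0.30, 0.55 and 0.35 against 0.27, 0.22 and 0.29. With no filter on low RPKM, when 27963 rows were tested, the adjusted p-values of these 5 genes lay between 0.301 and 0.638 (limma), and 0 of all genes passed, whereas 1124 (ULA side) and 1675 (DLA side) had an unadjusted p-value under 0.05.

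**Figure D4:**
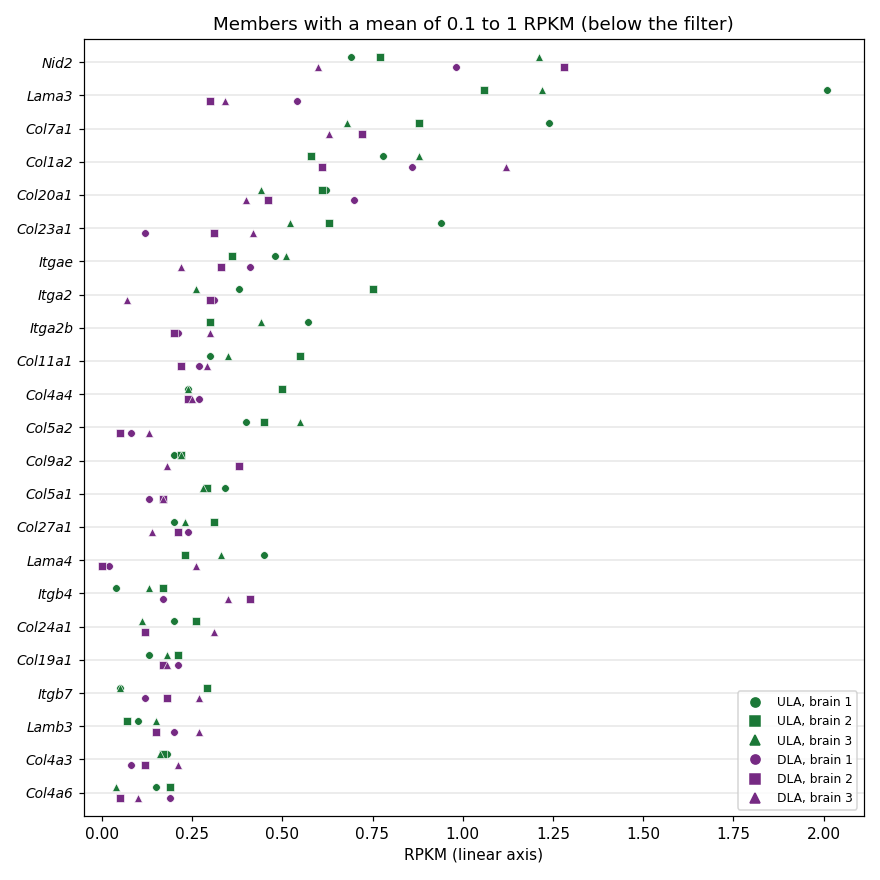
RPKM (linear axis) of the 23 members with a mean between 0.1 and 1 RPKM, ordered by mean, with ULAs in green above DLAs in purple and a shape for each brain. The ULA symbols of Lama3, Col23a1, Col5a2, Col5a1 and Col11a1 lie to the right of all DLA symbols of the same gene.

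Other members of this level were uncertain for further reasons. Lama4, the alpha 4 chain of vascular laminins, had 0.45, 0.23 and 0.33 RPKM in ULAs and 0.02, 0 and 0.26 in DLAs, so that brain 3 differed from the other brains. Nid2 (0.60 to 1.28 RPKM, 83 to 158 reads) shares 386 bases with 2700060E02Rik on the opposite strand, which had 233 to 393 reads. With reads spread evenly over 2700060E02Rik, the overlap would hold 67.8% of the Nid2 reads on average, and a larger share is possible. Itgb4, the partner of Itga6 in epithelia, had 0.04, 0.17 and 0.13 RPKM in ULAs and 0.17, 0.41 and 0.35 in DLAs (6 to 64 reads). It shares 55 bases with Galk1, which had 270 to 455 reads. With even coverage of Galk1, the overlap would hold 41.5% of the Itgb4 reads on average, and a larger share is possible.

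Genes that process the matrix, bind it or transmit integrin signals were examined as 4 lists with 61 genes, 49 of which were tested. Of these, 1 was higher in ULAs (Dag1) and 1 was higher in DLAs (Sparc), where 0.714% and 0.914% of all rows tested were called. The median log2 difference was 0.09, against −0.03 over all rows tested. There were 31 genes above 0 and 18 below (63.3% above 0, against 45.0% of all rows tested). Dag1 encodes dystroglycan, the laminin and agrin receptor that anchors astrocyte end-feet, and had 79.95, 64.13 and 58.29 RPKM in ULAs and 54.97, 42.70 and 38.83 in DLAs. Its values did not overlap, and its log2 difference was 0.56 (SE 0.10, adjusted p = 0.0187, limma). The call was lost without the brain term, without brain 1, after the length correction or with no filter, the adjusted p reaching 0.328. Sparc, which encodes a secreted collagen-binding protein, had 19.54, 16.92 and 24.85 RPKM in ULAs and 44.61, 35.99 and 42.11 in DLAs (log2 difference −0.98, adjusted p = 0.00346, limma, and 0.3 with no filter).

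The remaining genes of these lists did not pass. Of 16 tested genes for collagen processing and crosslinking, 11 had log2 differences above 0 (68.8%, against 45.0% of all rows tested). P4ha1, a subunit of the prolyl hydroxylase that stabilizes the collagen helix, had 75.03, 74.69 and 74.49 RPKM in ULAs and 54.00, 59.35 and 61.49 in DLAs, without overlap (log2 difference 0.36, SE 0.10, adjusted p = 0.115, limma). Of 10 other matrix receptors, 7 were above 0 (70.0%, against the same 45.0%). Among them was the hyaluronan receptor Cd44 (7.25, 6.38 and 5.64 against 3.36, 3.55 and 4.95 RPKM, adjusted p = 0.115, limma). The 15 genes of the integrin adhesion complex, which links integrins to actin, centered on 0.01, and for 12 genes the log2 difference was smaller than 0.2. None passed, and Vcl and Src had an unadjusted p-value under 0.05. Of 8 matrix proteases and inhibitors, the most abundant was Timp4, an inhibitor of metalloproteinases, with 320.14, 302.67 and 378.77 RPKM in ULAs and 420.36, 432.08 and 447.34 in DLAs (log2 difference −0.38, SE 0.10, adjusted p = 0.0925).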

How the data were processed

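RNA was from GFP-positive astrocytes, with 3 libraries per layer, amplified with SMART-Seq v4, prepared with Nextera XT and sequenced with reads of 36 bases (single end). RPKM values cut to 2 decimals, mRNA lengths and exon numbers were deposited. The submitters' processing notes name CASAVA 1.8.2, bcl2fastq 1.8.4 and build mm9. The aligner and counting program are not given in the sources used here. The kit does not mark strand, so reads of overlapping genes on opposite strands cannot be told apart.

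Rows averaging at least 1 RPKM (13999) were transformed to log2(RPKM + 1) and fitted in R 4.3.3 with limma 3.58.1 (intensity trend, terms for brain and layer, 2-sided, Benjamini-Hochberg adjustment, threshold 0.05). This scale understates the change of low genes. Deviations from the layer mean were correlated between libraries of the same brain number (r of 0.42, 0.33 and 0.34, against −0.20 to −0.16 between numbers), and the study compares paired brains. Reads per gene were estimated from RPKM, length and depth, where 99.2% to 100% of low values of short mRNAs came out as whole reads.

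Members and gene lists were chosen with earlier results of these data known. Named were members and list genes that passed, the 8 largest rises and 8 largest falls, the 10 most abundant members and the most abundant tested member of each role group. Other genes were named with their values in view. The fit was tested on simulated data. Values were handled with Python 3.11.15 and pandas 2.3.3. Promoter sequences are from RefSeq.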

Additional observations from a re-analysis of the deposited data

How the results depend on the processing

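The number of members higher in ULAs, 1 in the reported comparison, was 0 with no replicate block (the brain left out of the model), with a pseudocount of 0.1, with no filter on low RPKM, with a filter at a mean RPKM of 5 (where Col9a1 is not tested) and after the length correction, and ranged from 0 to 2 with 1 brain left out. The number higher in DLAs was 0 in each setting except without brain 3, where it was 1 (Col1a1), so that it ranged from 0 to 1. Genes of the 4 related lists higher in ULAs, also 1, became 0 with no replicate block, with no filter and after the length correction and ranged from 0 to 5 with 1 brain left out, the 5 being without brain 3. Those higher in DLAs became 0 with no filter and ranged from 1 to 3. Over all genes, 23 and 18 passed (ULA and DLA) with no replicate block, 65 and 78 after the length correction, 431 and 695 without brain 3 and 0 in each direction with no filter, against 1124 and 1675 at an unadjusted p-value under 0.05. No scaling moved the median log2 difference of all genes by over 0.1.

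Over 11 alternatives, 21 named genes gave 222 values, of which 200 kept their direction and side of the threshold, 9 lost the call and 2 gained it. The other 11 changed sign, all in genes with adjusted p-values of at least 0.631 there. These were Agrn (−0.02, length correction), Col11a2 (0.02 under quantile normalization and 0.17 without brain 2), Col4a1 (0.02 without brain 1), Col4a2 (0.02 without brain 2), Itga1 (0.00 under median centring and without brain 1), Itga7 (−0.07 without brain 3), Itgb5 (0.04 without brain 1 and 0.07 without brain 3) and Itgb8 (−0.11 without brain 2). With 1 brain left out, these genes ranged from −0.18 to 0.17 (Col11a2), −0.05 to 0.02 (Col4a1), −0.06 to 0.02 (Col4a2), −0.07 to 0.29 (Itga7), −0.18 to 0.07 (Itgb5) and −0.11 to 0.12 (Itgb8). The filter at 0.5 RPKM was added after seeing the data. The cause of these changes was not tested.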
